A study of Drosophila melanogaster with 3 samples.

Results

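The regions described here are 501 stretches of the Drosophila melanogaster genome at which a broad peak of the female isoform of Doublesex (DSXF) and a peak of the male isoform (DSXM) lay over each other. A region was taken where 1 DSXF peak overlapped exactly 1 DSXM peak by 1 bp or more and that DSXM peak met no other DSXF peak, where the centres of both peaks were at most 200 bp apart, and where the DSXF peak was 3000 bp or wider. The search covered the sequences 2L, 2R, 3L, 3R, X and 4, which held 6494 DSXF and 5347 DSXM peaks of the 6520 and 5370 in all. The members thus took up 7.71% of the DSXF peaks and 9.37% of the DSXM peaks there, and 12.03% of the 4163 pairs in which 1 peak met 1 peak.

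Doublesex carries out the last step of somatic sex determination in the fly, as a regulator of transcription. Its female and male proteins come from sex-specific splicing, share the DM domain that binds DNA, and differ at the C-terminus; DSXF works with the cofactor Intersex. In the fat body both isoforms act on the yolk protein genes, which DSXF activates and DSXM represses. Both proteins form dimers on a short palindromic site, so a peak several times longer than the sonicated fragments can hold more than one occupied site, although a peak list does not show how many.

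The study profiled S2 cells, a line of embryonic origin that expresses macrophage-like genes, by chromatin immunoprecipitation and sequencing. S2 cells transfected with a DSXF or a DSXM coding plasmid of the pMT5.1 type, each with V5 and His tags and cotransfected with the selection plasmid pCoBlast, were precipitated with an antibody to V5; pMT vectors drive the protein from an inducible Metallothionein promoter. The third sample was input DNA of S2 cells that were not transfected and was not precipitated. There were 3 biological replicates for each isoform and 2 for the input, and their reads were merged per sample ahead of the alignment. Each isoform is therefore 1 list of peak positions on the dm3 build, with no replicate error, no height and no score. No test between the isoforms was possible, the read depth is unknown, and the intervals given are 95% Wilson intervals that cover counting error over peaks only. DSXF was read in 4 sequence runs and DSXM in 3. A deeper sample can yield wider peaks, and the part of depth in any width difference below was not tested. Peaks that an antibody to V5 might give without any tagged protein cannot be told apart from DSX binding here, since a V5 precipitate of untransfected cells was not analysed here.

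Most members were broad with either isoform. Their DSXF peaks had a median width of 3857 bp, with quartiles of 3359 and 4944 bp and a range of 3000 to 12160 bp. Their DSXM peaks had a median width of 3793 bp, with quartiles of 3308 and 4857 bp and a range of 823 to 12154 bp. The minimum of 3000 bp was set on the DSXF peak, and 459 of the 501 DSXM peaks (91.6%, interval 88.9 to 93.7%) reached it as well. In one-to-one pairs with an equally broad DSXF peak but centres farther apart, 51.8% of 276 DSXM peaks did. The members' share is thus tied to the limit on centres and is not a finding. Sheared chromatin ran from 200 to 1000 bp, per the labels, so that most members were wider than several fragments. By width of the DSXF peak, 279 members were from 3000 to under 4000 bp, 163 from 4000 to under 6000 bp and 59 were 6000 bp or wider.

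Since the rule keeps wide DSXF peaks, these regions made up a larger share of the occupied base pairs than of the peaks. That contrast follows from their choice and is not a finding. Their DSXF peaks covered 2.21 Mb, or 17.1% of the 12.9 Mb in all DSXF peaks on the 6 sequences. Their DSXM peaks covered 2.16 Mb, or 20.2% of the 10.7 Mb in all DSXM peaks. The base pairs inside both peaks of a member came to 2.13 Mb, which was 23.3% of all base pairs common to the lists. Within the members the common part was 95.03% of the 2.24 Mb covered by either isoform, and over the whole lists it was 63.1%. The members were chosen for overlap, so the first of these values describes them and is not a finding.

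**Figure D1:**
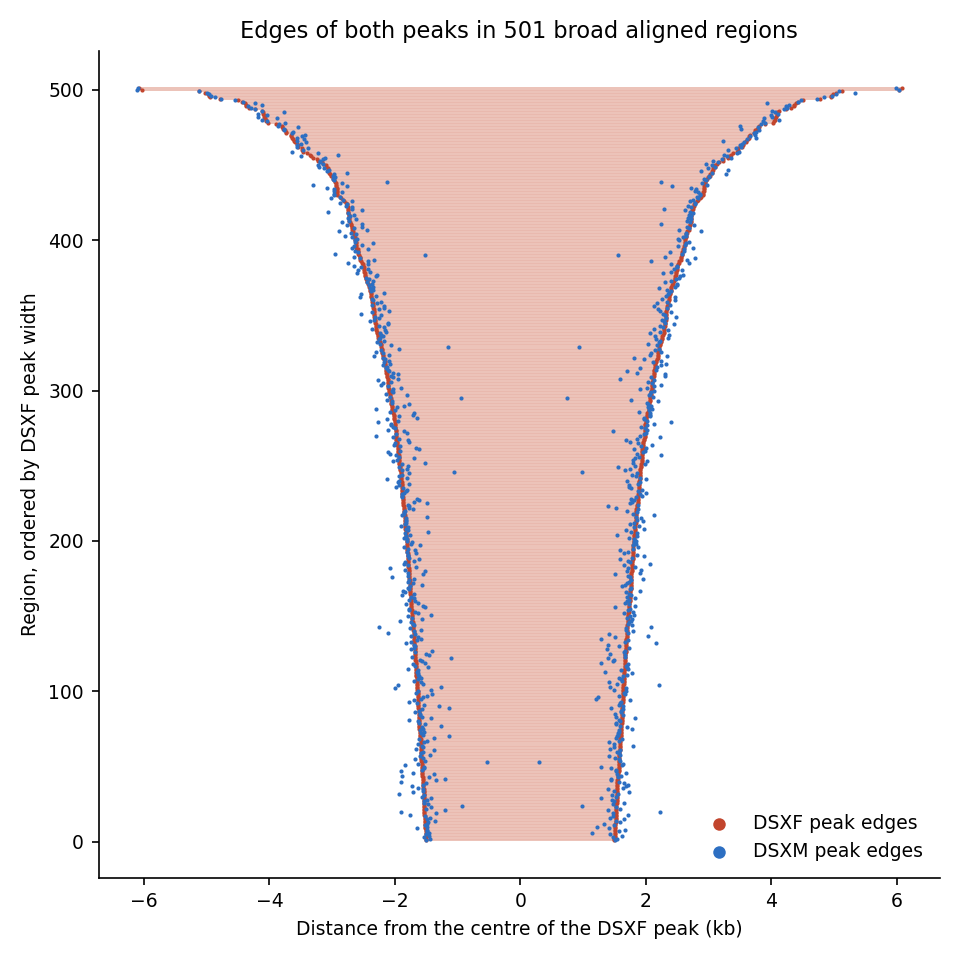
Start and end of the DSXF peak (red points) and of the DSXM peak (blue points) in each of the 501 regions, as the distance in kb from the centre of the DSXF peak; regions are stacked by DSXF peak width and the pale bars span the DSXF peak. The blue points follow the red outline over the whole range of widths, from 3000 bp at the bottom to 12160 bp at the top, and a few regions have blue points far inside the red outline on both sides.

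The outlines of the widest members are given next. They are tied in part to the limit of 200 bp on centres, which left out wide peaks with a poorer match. Of the 10 widest DSXF peaks of any kind, 2 were members. The close match thus describes the members and is not a finding. The widest member was on X, where the DSXF peak ran from 3663516 to 3675675 (12.2 kb) and the DSXM peak from 3663497 to 3675594 (12.1 kb). Their starts were 19 bp apart and their ends 81 bp apart. The next was on 2R, with DSXF from 10367737 to 10379806 (12.1 kb) and DSXM from 10367658 to 10379811 (12.2 kb). On 3R, a DSXF peak from 20389625 to 20399883 (10.3 kb) met a DSXM peak from 20389631 to 20399837 (10.2 kb). At these 3 places both peaks shared 99.2%, 99.3% and 99.5% of the base pairs that either covered.

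The others of the 10 widest members were 8.86 to 10.07 kb wide in the DSXF list. On 3L they lay from 7797239 to 7807306, from 5172858 to 5182752 and from 14047371 to 14056382. On 2L they lay from 489627 to 499595 and from 16528066 to 16537979. On 2R they lay from 2025621 to 2035193 and from 14236962 to 14245825. The one on 3L at 7797239 had the least close outline of the 10, since its DSXM peak ended 297 bp farther to the right, and it still shared 96.8%. At the other extreme, the 2R region at 14236962 had edges 15 and 5 bp apart over 8.86 kb and shared 99.8%. The DSXM peak was the wider of the pair in 4 of the 10.

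Over all members, the edges of the isoforms lay a median of 63 bp apart at the start and 63 bp apart at the end. The upper quartiles were 154 and 138 bp. Both edges were within 100 bp in 219 members (43.7%, interval 39.4 to 48.1%) and within 200 bp in 365 (72.9%, 68.8 to 76.6%). An edge that differed by 500 bp or more, on either side, was seen in 14 members (2.79%, 1.67 to 4.64%). The narrower aligned pairs were closer in bp, with 55.2% (53.4 to 57.1%) within 100 bp at both edges, 81.8% (80.4 to 83.2%) within 200 bp and 0.706% (0.457 to 1.09%) with an edge that differed by 500 bp or more. The limit on the centres keeps the start and the end from moving far in the same direction, but it leaves an equal retreat of both edges free. The 3 members with the closest outlines were on 3L from 10354308 to 10357732, where the starts differed by 1 bp and the ends by 0 bp, on X from 3611356 to 3615053, with differences of 2 and 5 bp, and on 2L from 16283200 to 16288685, with differences of 4 and 5 bp.

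The distance between edges changed little with the width of the member. The median over both edges was 62.5 bp for members under 4000 bp, 66.5 bp for those from 4000 to under 6000 bp and 56.5 bp for those of 6000 bp or more. In narrower pairs that met the same limit on centres it was 42 bp for DSXF peaks from 1000 to under 1500 bp, 58.5 bp from 1500 to under 2000 bp and 61 bp from 2000 to under 3000 bp. Since a like edge distance is a smaller part of a wider peak, the median share of base pairs common to both peaks was 95.5%, 96.8% and 97.7% in the 3 width classes of members, from narrow to wide. Over all members it was 96.3%, and over the 2833 narrower aligned pairs it was 92.3%.

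Because the limit on centres bounds these distances, they were also taken over every one-to-one pair. Without the limit, the median edge distance was 45 bp for DSXF peaks from 1000 to under 1500 bp, 80 bp from 2000 to under 3000 bp, 89.5 bp from 3000 to under 4000 bp, 94 bp from 4000 to under 6000 bp and 85.5 bp at 6000 bp or more. The distance was thus higher above 2000 bp than below 1500 bp, and among pairs of 3000 bp or more it stayed between 85.5 and 94 bp. The upper quartile in the 3 broad classes was 295.5, 281.5 and 254 bp.

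**Figure D2:**
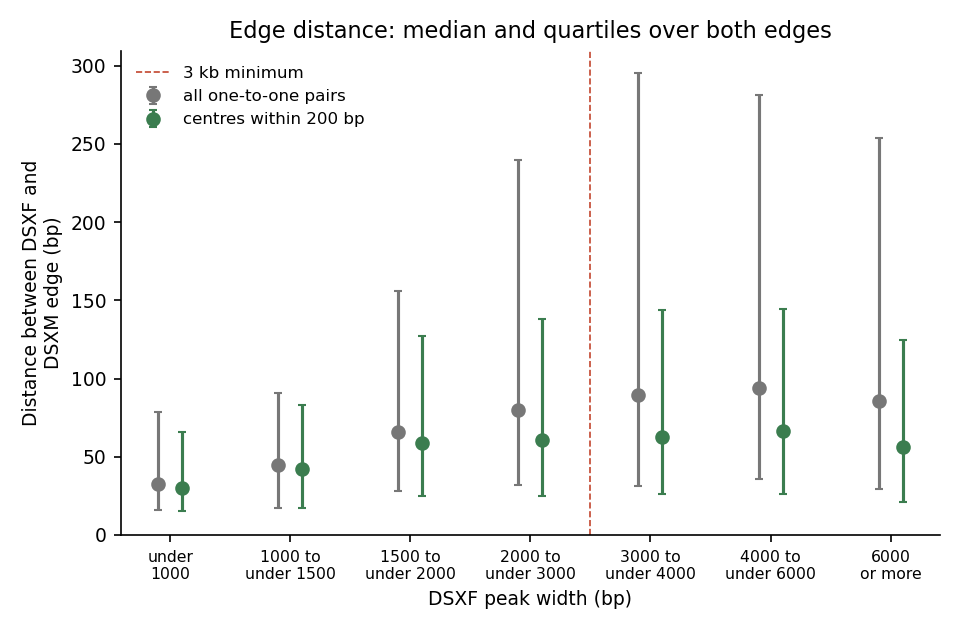
Distance in bp between the DSXF and the DSXM edge, over starts and ends together, by width class of the DSXF peak in bp; points are medians and bars run from the lower to the upper quartile over edges, in green for pairs with centres within 200 bp and in grey for all one-to-one pairs. To the right of the dashed line at 3 kb the green medians lie between 56.5 and 66.5 bp and the grey ones between 85.5 and 94 bp.

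The widths of both peaks were close in most members. The ratio of DSXM to DSXF width had a median of 0.986, with quartiles of 0.956 and 1.01. The widths were within 5% of each other in 352 members (70.3%, interval 66.1 to 74.1%) and within 10% in 445 (88.8%, 85.8 to 91.3%). Among the narrower aligned pairs the corresponding shares were 42.4% (40.5 to 44.2%) and 67.8% (66.1 to 69.5%). A limit in percent allows more bp in a wider peak, so members meet it more easily by their choice. In bp, the difference DSXM minus DSXF had quartiles of -186 and 48 bp in members and of -144 and 36 bp in narrower aligned pairs. The ratio ranged from 0.915 to 1.04 among the 59 members of 6000 bp or more, against 0.261 to 1.35 among the 279 under 4000 bp. A range tends to grow with the number of members, and the quartiles differed less. They were 0.974 and 1.00 in the wider class and 0.942 and 1.02 in the narrower. In bp, the quartiles of the difference were -179 and 18 against -193.5 and 53.5.

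In 324 members (64.7%, interval 60.4 to 68.7%) the DSXF peak exceeded the DSXM peak in width, in 175 (34.9%) it was narrower, and 2 had equal widths. The median difference, DSXM minus DSXF, was -63 bp. The same share in the narrower aligned pairs was 65.4% (63.6 to 67.1%), so the members' share lay within counting error of it. Over all 3334 aligned pairs it was 65.3% (63.6 to 66.9%). When aligned pairs were chosen by a DSXM width of 3000 bp or more instead, 479 were found. DSXF had the greater width in 58.9% of them (54.4 to 63.2%), a share below the members' interval of 60.4 to 68.7%. Since 459 pairs belong to both sets, overlap of the intervals is no guide, and the difference was not tested. The share with a wider DSXF peak was thus higher when the minimum was set on the DSXF peak itself. By arm the share was 64.0% of 100 members on 2L, 64.0% of 86 on 2R, 66.7% of 102 on 3L, 61.6% of 138 on 3R and 71.2% of 73 on X.

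In 209 members (41.7%, interval 37.5 to 46.1%) the DSXM peak lay wholly within the DSXF peak, and in 82 (16.4%, 13.4 to 19.9%) the DSXF peak lay within the DSXM peak. The shares were 44.8% (43.0 to 46.7%) and 17.7% (16.4 to 19.2%) in narrower aligned pairs, within the members' intervals. The remaining members were staggered, with the DSXM peak displaced towards higher coordinates in 108 and towards lower coordinates in 102. The DSXM centre lay on the side of higher coordinates in 245 of 501 (48.9%, 44.6 to 53.3%), so there was no excess of either side beyond counting error. The centres were a median of 50.5 bp apart.

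**Figure D3:**
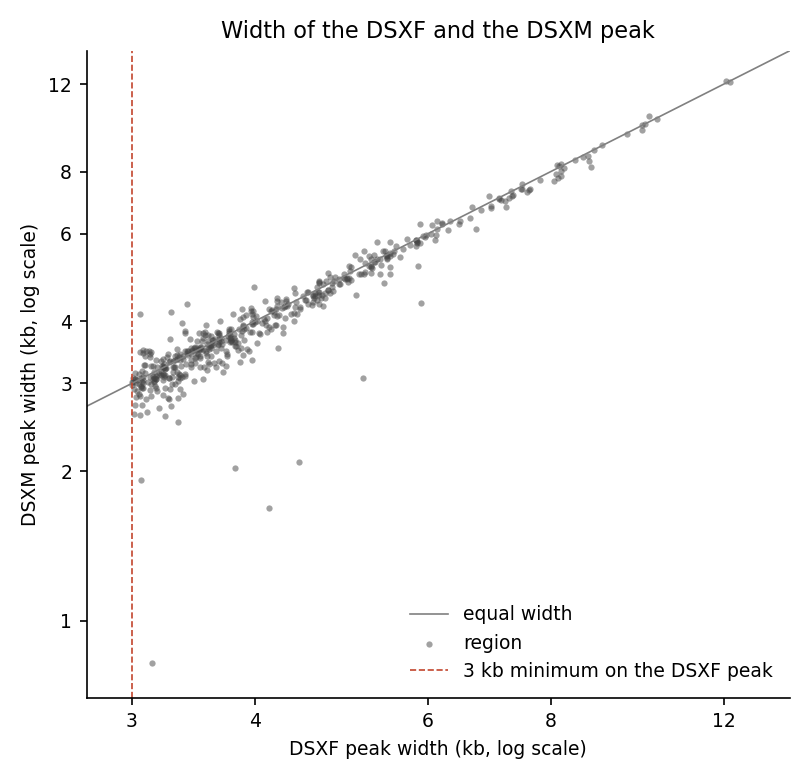
Width in kb of the DSXF peak (horizontal, log scale) and of the DSXM peak (vertical, log scale) in each of the 501 regions; the grey line marks equal width and the dashed line the 3 kb minimum. Most points lie on or just below the line, 324 of them below it, and the region farthest from it has a DSXM peak of 823 bp.

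A few members were broad with DSXF and much narrower with DSXM. The lowest ratio was on 2L, where a DSXF peak of 3.15 kb from 8282909 to 8286057 surrounded a DSXM peak of 0.823 kb from 8283959 to 8284781. On 3L, a DSXF peak of 4.14 kb from 21275552 to 21279688 surrounded a DSXM peak of 1.69 kb, and another of 3.82 kb from 14772682 to 14776501 surrounded one of 2.03 kb. On 2R, a DSXF peak of 4.44 kb from 5717161 to 5721600 surrounded a DSXM peak of 2.09 kb. On X, a DSXF peak of 5.15 kb from 2015337 to 2020488 surrounded one of 3.08 kb. In each of these 5 regions the DSXM peak stopped short of the DSXF peak at both ends, by 861 to 1324 bp per end, while the centres were 15 to 113 bp apart.

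The opposite form, a DSXM peak that reached beyond the DSXF peak at both ends, was smaller in size among the members. The rule bears on this, since it leaves out a DSXF peak under 3000 bp however wide its DSXM peak is. In aligned pairs chosen by a DSXM width of 3000 bp or more instead, the ratio ran from 0.599 to 1.61. The highest ratio among the members, 1.35, was on 2L. There the DSXF peak ran from 4885642 to 4888701 (3.06 kb) and the DSXM peak from 4885275 to 4889406 (4.13 kb). Next came 3R from 5242958 to 5246370, with widths of 3.41 kb in the DSXF and 4.34 kb in the DSXM list, and 2R from 15348464 to 15351750, with 3.29 and 4.17 kb. The other 2 of the 5 were on 3R from 4493639 to 4497015 and from 2220534 to 2224532, with ratios of 1.18 and 1.17. In these 5 the DSXM peak extended past the DSXF peak by 126 to 705 bp per end. Only 9 members (1.80%, interval 0.948 to 3.38%) shared less than 75% of the base pairs that either peak covered.

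The limits of the rule cut through a continuous range. Just inside the width minimum were DSXF peaks of 3000 bp on 3R from 23429294 to 23432293 and of 3002 bp on X from 19184509 to 19187510. Just outside were 2 aligned pairs with DSXF peaks of 2995 bp, on 3R from 11617786 to 11620780 and on X from 12097019 to 12100013. Their DSXM peaks were 2926 and 3124 bp wide. At the limit on centres, the last members had distances of 200 bp (3R from 22924028 to 22927259) and 199 bp (3R from 11923191 to 11926635). The first pairs left out had distances of 202 bp (2R from 7088676 to 7095440 and 2R from 10459967 to 10465569). Those 2 were 6.77 and 5.60 kb wide and shared 94.1% and 93.2% of covered base pairs, more than the 88.4% and 88.8% of the last members.

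Not every broad DSXF peak was matched in this way. Of the 948 DSXF peaks of 3000 bp or more, 501 (52.8%, interval 49.7 to 56.0%) were members. Another 276 (29.1%, 26.3 to 32.1%) met a single DSXM peak with a centre farther away, 133 (14.03%, 11.96 to 16.4%) met several DSXM peaks, 20 shared their DSXM peak with another DSXF peak and 18 (1.90%, 1.20 to 2.98%) met no DSXM peak. Over all 6494 DSXF peaks of any width, 51.3% (50.1 to 52.6%) were in aligned pairs, 12.8% (11.98 to 13.6%) in displaced pairs, 2.57% (2.21 to 2.99%) met several DSXM peaks and 31.2% (30.1 to 32.4%) met none. The share in aligned pairs was thus nearly the same among broad peaks as among all, but it was not even over width. It was 15.4% under 1000 bp, where 82.0% met no DSXM peak. From 1500 to under 2000 bp it was 62.0%, and from 2000 to under 3000 bp 59.0%. The share of members was 56.0% (51.6 to 60.3%) among DSXF peaks from 3000 to under 4000 bp, 49.5% (44.2 to 54.9%) from 4000 to under 6000 bp and 48.8% (40.0 to 57.6%) at 6000 bp or more. Over the same classes the share that met several DSXM peaks was 6.22% (4.42 to 8.70%), 20.4% (16.4 to 25.0%) and 28.9% (21.6 to 37.6%), whereas the share with no DSXM peak was 3.21%, 0.608% and 0%. The last value is 0 of 121 peaks, with an upper Wilson bound of 3.08%. Since an overlap of 1 bp counts, a longer peak can meet more DSXM peaks, or fail to meet any less often, by its length alone. The trends over width are therefore tied to width itself and were not tested.

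**Figure D4:**
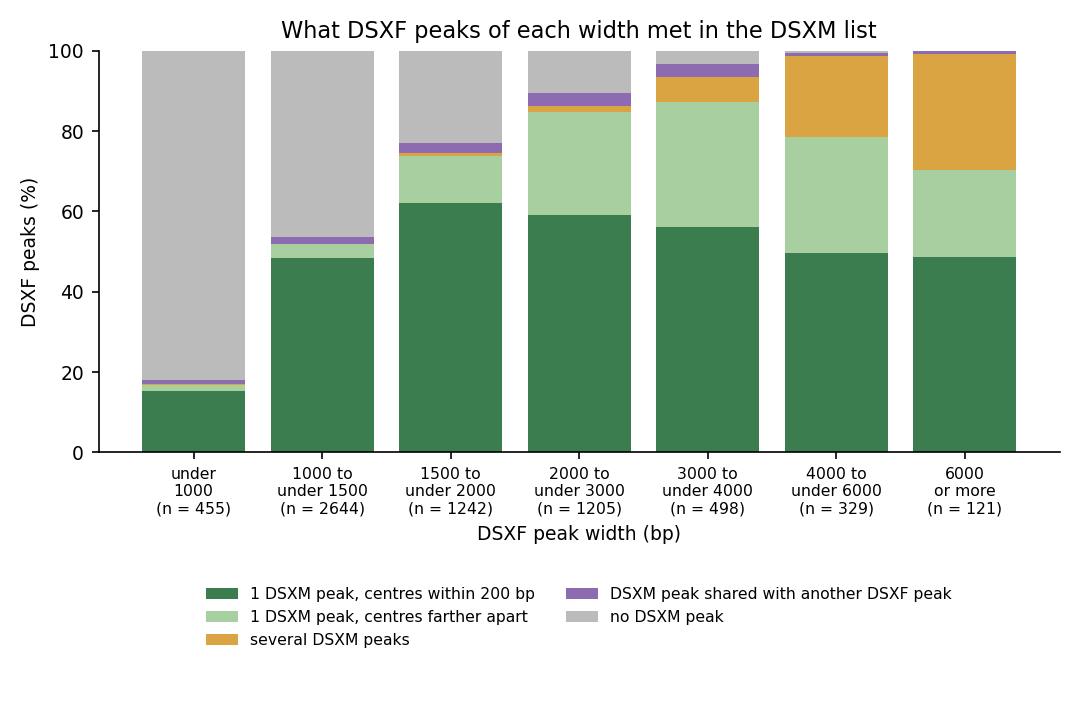
Percent of DSXF peaks in 7 classes of width (bp) by what they met in the DSXM list; each bar adds to 100% and n is the number of DSXF peaks. The dark green part of the last 3 bars holds the 501 members, with 56.0%, 49.5% and 48.8% of peaks, and the orange part, peaks that met several DSXM peaks, takes 6.22%, 20.4% and 28.9%. A longer peak can meet more DSXM peaks by its length alone.

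The extreme of the width range held members and other peaks. Of the 10 widest DSXF peaks, 2 were members (20.0%, interval 5.67 to 51.0%). Another 4 were one-to-one pairs with displaced centres, 3 met several DSXM peaks and 1 shared its DSXM peak. That interval includes the 48.8% of members among all DSXF peaks of 6000 bp or more, so no difference from that class can be read from 10 peaks. The widest DSXF peak of all, on X from 12613362 to 12639005 (25.6 kb), missed the limit by little, since its centre was 208.5 bp from that of its DSXM partner. The displaced broad pairs also had less similar widths. Their median ratio of DSXM to DSXF width was 0.764, with quartiles of 0.596 and 0.955, against 0.986 for the members, and in 245 of the 276 an edge differed by 500 bp or more. A large difference at 1 edge displaces the centre, so these values are tied to the rule and carry no test.

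Chromosome and surroundings are described next. The rule made no use of chromosome. It bears on the surroundings, since it left out pairs in which either peak met a further peak of the other list. Values on neighbouring peaks below are therefore not free of the rule. Members were spread over all 5 large arms: 138 lay on 3R, 102 on 3L, 100 on 2L, 86 on 2R and 73 on X, and 2 on chromosome 4. Per Mb between the first and the last peak of a sequence, this was 4.95 on 3R, 4.36 on 2L, 4.17 on 3L, 4.07 on 2R, 3.28 on X and 1.60 on chromosome 4. The X held 14.6% of members (interval 11.8 to 17.9%), 10.7% of the narrower aligned pairs (9.64 to 11.9%) and 12.9% of all DSXF peaks on the 6 sequences. The intervals of the first 2 shares overlap narrowly, and the difference was not tested. Of all DSXF peaks of 3000 bp or more, members included, 14.8% lay on X, so the members' share was near that of broad peaks in general.

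Given that a DSXF peak was broad, the share that were members was alike from arm to arm. Members were 57.7% (51.4 to 63.8%) of the broad DSXF peaks on 3R, 54.8% (47.0 to 62.4%) on 2R, 52.1% (43.9 to 60.2%) on X, 49.5% (42.8 to 56.3%) on 3L and 49.5% (42.7 to 56.3%) on 2L, and all these intervals overlap. The median DSXF width of members ran from 3742 bp on 2L to 4049.5 bp on 3L. The 2 members on chromosome 4, singled out after their values were seen, lay from 78989 to 82110, with 3.12 kb of DSXF and 3.49 kb of DSXM peak, and from 715401 to 718911, with 3.51 and 3.78 kb. In both the DSXM peak was the wider.

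Members had slightly more peaks around them than narrower aligned pairs, with overlapping quartiles. Broad DSXF peaks outside the members were not measured in this way. Whether the values on neighbours here and below hold for broad peaks in general was not tested. Within 25 kb of either edge, a member had a median of 5 other DSXF peaks (quartiles 3 and 7) and 4 other DSXM peaks (3 and 6). The narrower aligned pairs had a median of 4 DSXF (2 and 6) and 3 DSXM peaks (2 and 5), and the median over all DSXF peaks was 4. There was no other DSXF peak within 25 kb for 8 members (1.60%, interval 0.811 to 3.12%) and for 143 narrower aligned pairs (5.05%, 4.30 to 5.92%). The gap to the nearest DSXF peak had a median of 1830 bp for members and 2699 bp for narrower aligned pairs, and the gap to the nearest DSXM peak 2179 and 3490 bp.

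The nearest peak was often very close. It was within 500 bp for 100 members in the DSXF list (20.0%, interval 16.7 to 23.7%) and for 70 in the DSXM list (13.97%, 11.2 to 17.3%). Among narrower aligned pairs these shares were 13.9% (12.6 to 15.2%) and 9.95% (8.91 to 11.1%). The nearest DSXF peak of a member was itself 3000 bp or wider in 116 cases (23.2%, 19.7 to 27.0%), whereas this was so for 14.9% of narrower aligned pairs (13.6 to 16.2%) and 14.6% of all DSXF peaks were that wide.

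The surroundings were common to both isoforms in most cases. On 657 of the 1001 sides of members that had a further peak in both lists (65.6%, interval 62.6 to 68.5%), the next DSXF and the next DSXM peak overlapped each other. On these sides the gap to the next peak differed between the lists by a median of 126 bp. In narrower aligned pairs the share was 62.9% (61.6 to 64.1%). The next DSXF peak had no DSXM partner on 270 sides (27.0%, 24.3 to 29.8%), against 29.7% (28.6 to 30.9%) of sides of narrower aligned pairs and 31.2% of all DSXF peaks without a partner. Within 25 kb, 351 members (70.1%) had at least 1 DSXF peak without a partner and 208 (41.5%) had at least 1 DSXM peak without one, and among narrower aligned pairs 66.8% and 36.9% did. The DSXF list is longer, so these 2 shares cannot be set against each other.

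Members also stood near each other. Another member lay within 25 kb for 192 of 501 (38.3%, interval 34.2 to 42.7%). A member lay within 25 kb of 869 of 2833 narrower aligned pairs (30.7%, 29.0 to 32.4%) and of 30.0% of all DSXF peaks. Nearness between members is mutual, and neighbouring pairs can count the same member. Both intervals are therefore too narrow, and the difference was not tested. Chained by gaps under 25 kb, the members formed 309 single regions, 58 groups of 2, 14 of 3, 6 of 4 and 2 of 5. Over 123 bins of 1 Mb, 10 bins held no member, and the highest numbers were 14 on X between 13 and 14 Mb, 12 on 2L between 16 and 17 Mb and 11 on 3R between 22 and 23 Mb.

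In both groups of 5, most members had close outlines in the lists. The group on X spanned 57.2 kb, from 13148349 to 13205590, and its members were 3.52, 3.08, 6.11, 4.68 and 4.88 kb wide in the DSXF list and 3.53, 3.00, 5.82, 4.51 and 4.76 kb wide in the DSXM list. Its 3 middle members were separated by gaps of 0.489 and 1.34 kb in the DSXF list and of 0.851 and 1.51 kb in the DSXM list. Its members shared 95.3 to 99.7% of covered base pairs. The group on 3R spanned 69.5 kb, from 17414724 to 17484193, with members of 4.01, 5.54, 6.21, 4.02 and 3.54 kb in the DSXF list and 3.98, 5.55, 6.28, 3.62 and 3.66 kb in the DSXM list. Its last 2 members were 0.533 kb apart for DSXF and 0.636 kb apart for DSXM. These 2 shared 90.1% and 92.9% of covered base pairs, below the members' lower quartile of 93.4%, and the other 3 shared 97.2 to 99.5%. Peaks of any kind covered 45.5% of the X group for DSXF and 46.7% for DSXM, and 46.9% and 40.3% of the 3R group.

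**Figure D5:**
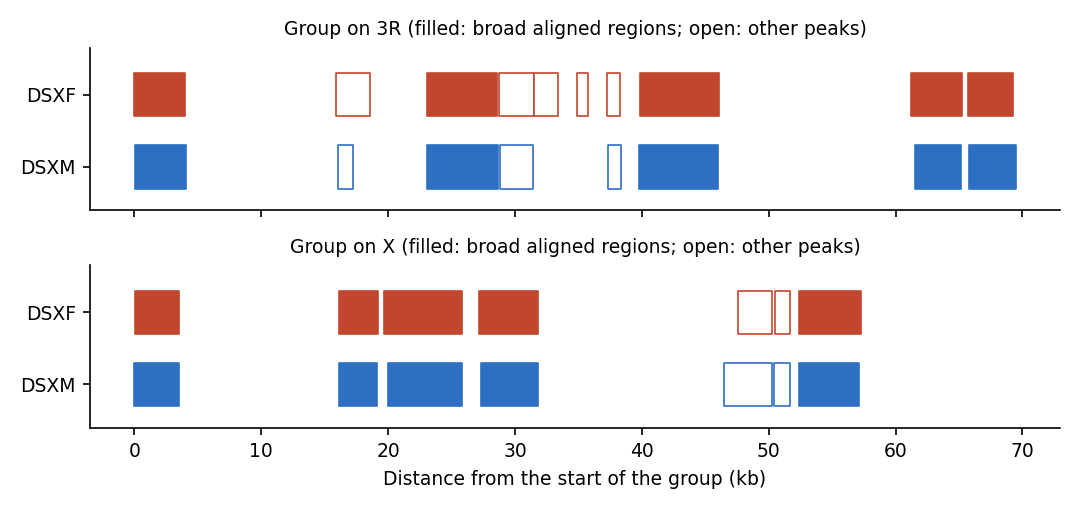
Peaks of DSXF (red) and DSXM (blue) along both groups of 5 members, as the distance in kb from the start of each group; filled boxes are members and open boxes are other peaks. In either group the 5 filled boxes of the lists stand over each other, and the 3R group has 5 other DSXF and 3 other DSXM peaks between them against 2 and 2 in the X group.

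Stretches without members were also measured to the first and the last peak of each arm. The longest was 1.87 Mb on X, from 142385 to 2015336, in which 43 DSXF peaks lay. The next was at the end of 3L, 1.71 Mb from 22818783 to 24531293, with 22 DSXF peaks after the last member. It was followed by 1.62 Mb on X from 17195236 to 18811655, with 63 DSXF peaks, by 1.48 Mb on 2L from 5946259 to 7421506, with 97, and by 1.45 Mb on X from 19782744 to 21236684, with 34. The median distance to the next member on the same sequence was 130.3 kb, with quartiles of 29.5 and 318.2 kb. The X thus held the densest bin of members and 3 of the 5 longest stretches without any.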

How the data were processed

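Chromatin of transfected S2 cells was fixed with 1% formaldehyde for 10 min, and libraries were made from 100 ng of precipitated and 300 ng of input DNA, per the labels' protocols. Reads were placed on dm3, and Bowtie 0.12.7 and Picard were used, per the submitters' processing notes; how peaks were called, with which control and threshold, is not given in the sources used here. Deposited files hold a sequence name, a start and an end per peak; starts were read as counted from 0 and are printed counted from 1. Each list was assigned by its name, which holds the title of 1 sample. Since replicates were pooled, the number of replicates behind a region is unknown.

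Pairs were built with NumPy 2.4.6 and SciPy 1.17.1 under Python 3.11.15, tested on simulated lists, and bedtools 2.31.1 gave the same 501 members. A gap or window was measured from peak edge to peak edge. Members, lists and alternatives were chosen with earlier results of these data known. The regions named were the 10 widest, the 5 lowest and 5 highest width ratios, the 3 closest outlines, the largest groups and the pairs at the limits of the rule. The gene table used here is of another build, so no gene is named and no sequence is shown. Alternatives tried were other width minimums, a tighter limit on centres, a reciprocal overlap and a minimum set on the DSXM peak or on both.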

Additional observations from a re-analysis of the deposited data

How the results depend on the processing

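Of 48 values recomputed (8 results under 6 alternatives), 33 stayed within the counting interval of the main value, or for the number of members within 1.5 times it; intervals of medians came from binomial ranks. The number of members was 771 with a width minimum of 2500 bp and 222 with 4000 bp. Members made up 49.3% of broad DSXF peaks with a minimum of 4000 bp, 40.4% with centres at most 100 bp apart and 48.4% with the minimum on both peaks, an alternative chosen after seeing the data. With the minimum on the DSXM peak they were 60.9% of broad DSXM peaks, the median width ratio was 0.992 and the DSXF peak was the wider in 58.9%; that share was 69.8% with a minimum of 4000 bp. The median share of common base pairs was 95.8% with 2500 bp, 97.2% with 4000 bp and 97.2% with centres at most 100 bp apart. Another member lay within 25 kb for 47.6% with 2500 bp, 30.6% with 4000 bp and 30.8% with centres at most 100 bp apart; fewer members leave fewer to be near. The share on X and the median number of neighbouring DSXF peaks stayed within the interval under all 6 alternatives, and a reciprocal overlap of 50% moved none of the 8 results beyond it. A stricter peak threshold could not be tried, because the lists hold no scores, and no replicate could be left out, because they were pooled. No paired analysis was possible because the peaks come from replicates merged per isoform. Depth is unknown and limits every comparison of widths between the isoforms.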

Other observations

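The heterochromatic and unplaced sequences, which the choice of members left out, held 26 DSXF and 23 DSXM peaks. They gave 17 one-to-one pairs, of which 13 had centres within 200 bp. No DSXF peak there was 3000 bp or wider, so 0 of these pairs would have been members. The closest of the 17 pairs by centre was on U, 0.5 bp apart, with widths of 1122 bp for DSXF and 1131 bp for DSXM.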
